A study of Mus musculus with 6 samples.

Results

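The genes described here are 9 genes that mark the subiculum or the layers of the neocortex, Fn1, Nts, Tbr1, Tle4, Foxp2, Fezf2, Rorb, Cux2 and Lmo3, and they were taken by name from the 24935 genes of the deposited table. They were measured in left hippocampal tissue of C57BL/6 mouse pups of both sexes at P14. Pups of the hyperoxia group were kept with their dams in 85% oxygen from P2 to P14, and pups of the air group were kept in room air, with 3 mice and 1 library per mouse in each group. The labels name no transgene and no other agent for either group, and the left hippocampus was taken whole, so that each library holds all the cell types of the dissected piece. The genes were selected on what they mark and on their normalized counts in these 6 libraries, and their levels are therefore given as a description, without a test.

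The subiculum is the output field of the hippocampus and lies between CA1 and the cortex that borders it. Glutamatergic neurons of the neocortex are set in layers, and each layer is known by transcription factors that its neurons switch on as they are born and keep as they mature. Tbr1, Tle4 and Foxp2 are known from the deep layer whose neurons project to the thalamus, Fezf2 from the layer that projects to brainstem and spinal cord, and Rorb and Cux2 from the layers that receive thalamic input and connect cortical areas. Several of these genes are also expressed inside the hippocampus and in other brain regions, so a level in dissected tissue does not by itself name a region. Fewer cells of a type and less RNA per cell cannot be told apart in tissue of this kind.

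Values are deposited normalized counts, which are reads on a gene divided by a size factor of the library. Libraries held between 30384052 and 38746972 reads on genes. In a principal component analysis of log2 values, component 1 parted the groups (52.7% of the variance), while hyperoxia library 2 lay apart from the others on component 2 (19.5%). Libraries are named by the numbers of the deposited columns, which are not the numbers of the animals, and values are given in the order of libraries 1, 2 and 3 of a group. Which libraries are hyperoxia and which are air rests on the column names alone. The sources used here do not settle that assignment beyond doubt. The only check made was a look at the study's own tables. Each clearly changed gene looked up there had the opposite sign to that under the column names. For Eomes (TBR2) mRNA the study reported an increase in hyperoxia, the opposite of the direction under the column names. Every higher and lower below therefore holds only for the libraries as named. Of the 17778 genes whose mean over all libraries was 10 or more, 30.5% passed an adjusted p of 0.05 in limma (Benjamini-Hochberg over all genes tested), 14.9% higher and 15.6% lower in hyperoxia-exposed mice. The median log2 difference of all tested genes was -0.01. All 9 marker genes passed the filter on low values. In that same fit 6 of the 9 were past the threshold and higher, and none was past it and lower, but these values had served to choose the genes. With the trend of each library on transcript length and GC content removed, 5 were past it and higher, without Rorb.

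Fn1 encodes fibronectin, a protein of the extracellular matrix that is known as a marker of subicular pyramidal cells and is also made by vascular and connective tissue cells. The gene (ENSMUSG00000026193.15) lies on the minus strand at chr1:71585520-71653200 of GRCm38. Fn1 measured 3173.7, 2499.2 and 3745.2 normalized counts in the air libraries and 6063.1, 5167.2 and 5801.9 in the hyperoxia libraries. Every hyperoxia library lay above every air library. The means were 3139.4 ± 623.7 in air and 5677.4 ± 460.7 in hyperoxia (SD, n = 3 each), and the log2 difference was 0.87 with a standard error of 0.13. Exons of Fn1 overlap Apol7d on the other strand, which measured at most 4.71 normalized counts in any library.

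Nts encodes the precursor of neurotensin, a secreted neuropeptide. The gene (ENSMUSG00000019890.4) lies on the minus strand at chr10:102481756-102490486. Nts measured 307.0, 250.3 and 297.7 normalized counts in the air libraries and 729.3, 488.0 and 586.8 in the hyperoxia libraries. The groups did not overlap, and hyperoxia library 1 was the highest. The means were 285.0 ± 30.4 in air and 601.4 ± 121.3 in hyperoxia (SD, n = 3 each), with a log2 difference of 1.06 (SE 0.15).

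The 3 genes of layer 6 had different patterns. Tbr1, a T-box transcription factor of early-born deep-layer neurons (ENSMUSG00000035033.15, plus strand, chr2:61802930-61814114), measured 3454.3, 2951.0 and 3108.7 normalized counts in the air libraries and 3890.3, 2770.4 and 2893.7 in the hyperoxia libraries. Hyperoxia library 1 was the highest of the 6 and hyperoxia libraries 2 and 3 were the lowest, so the groups overlapped. The means were 3171.3 ± 257.4 and 3184.8 ± 614.1 (SD, n = 3 each) and the log2 difference was -0.01 (SE 0.12). It was -0.16 without hyperoxia library 1 and 0.08 without hyperoxia library 2.

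Tle4, a co-repressor of the Groucho family that is strong in corticothalamic neurons (ENSMUSG00000024642.16, minus strand, chr19:14448150-14598051), measured 1433.3, 1296.4 and 1478.4 normalized counts in the air libraries and 2172.8, 1801.3 and 1953.6 in the hyperoxia libraries. The groups did not overlap. The means were 1402.7 ± 94.8 and 1975.9 ± 186.8 (SD, n = 3 each), with a log2 difference of 0.49 (SE 0.09).

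Foxp2, a forkhead transcription factor of layer 6 that is also known from striatum and thalamus (ENSMUSG00000029563.16, plus strand, chr6:14901349-15441977), had the lowest level of the 9 genes. It measured 29.2, 37.7 and 50.3 normalized counts in the air libraries and 172.4, 144.9 and 131.3 in the hyperoxia libraries. The lowest hyperoxia library was well above the highest air library. The means were 39.1 ± 10.6 and 149.5 ± 20.9 (SD, n = 3 each), with a log2 difference of 1.93 (SE 0.22), the largest of the 9 in either direction. These values rest on 31, 37 and 49 reads in air and 195, 128 and 136 reads in hyperoxia. The exact Poisson 95% interval, which covers counting error only, was 36.3 to 64.8 reads in the highest air library and 106.8 to 152.2 reads in the hyperoxia library with the fewest.

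Fezf2, a zinc finger transcription factor that directs the identity of layer 5 neurons with subcerebral axons (ENSMUSG00000021743.5, minus strand, chr14:12342094-12348189), measured 2143.4, 1661.7 and 1745.3 normalized counts in the air libraries and 1706.9, 1586.2 and 1488.3 in the hyperoxia libraries. The groups overlapped, because hyperoxia library 1 lay between air libraries 2 and 3. The means were 1850.1 ± 257.4 and 1593.8 ± 109.5 (SD, n = 3 each), with a log2 difference of -0.21 (SE 0.10).

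Rorb, a nuclear receptor known as a marker of layer 4 (ENSMUSG00000036192.15, minus strand, chr19:18930605-19111196), measured 721.4, 762.2 and 855.2 normalized counts in the air libraries and 1059.9, 1227.3 and 1027.0 in the hyperoxia libraries. The groups did not overlap, and this was the only marker gene with its highest value in hyperoxia library 2. The means were 779.6 ± 68.6 and 1104.7 ± 107.4 (SD, n = 3 each), with a log2 difference of 0.50 (SE 0.10). It was 0.16 once the trend of each library on transcript length and GC content had been removed.

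Cux2, a homeodomain transcription factor of layers 2 to 4 (ENSMUSG00000042589.18, minus strand, chr5:121856366-122050102), measured 1167.8, 1113.2 and 1153.9 normalized counts in the air libraries and 2773.0, 2196.4 and 1901.5 in the hyperoxia libraries. The 3 air libraries lay close together and the 3 hyperoxia libraries were all higher and far apart. The means were 1145.0 ± 28.3 and 2290.3 ± 443.3 (SD, n = 3 each), with a log2 difference of 0.98 (SE 0.12). The coefficient of variation was 2.5% in air and 19.4% in hyperoxia, where the median of all tested genes was 6.7% and 11.8%.

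Lmo3, a LIM-only cofactor of transcription factors found in several cortical layers and in hippocampal neurons (ENSMUSG00000030226.12, minus strand, chr6:138362918-138581968), was the only marker gene with every hyperoxia library below every air library. It measured 5248.4, 5281.3 and 4998.7 normalized counts in the air libraries and 4045.9, 3605.9 and 4988.2 in the hyperoxia libraries. Hyperoxia library 3 lay just under air library 3, so the groups barely parted. The means were 5176.1 ± 154.5 and 4213.3 ± 706.2 (SD, n = 3 each), with a log2 difference of -0.31 (SE 0.11), which was -0.44 without hyperoxia library 3 and -0.20 without hyperoxia library 2.

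**Figure D1:**
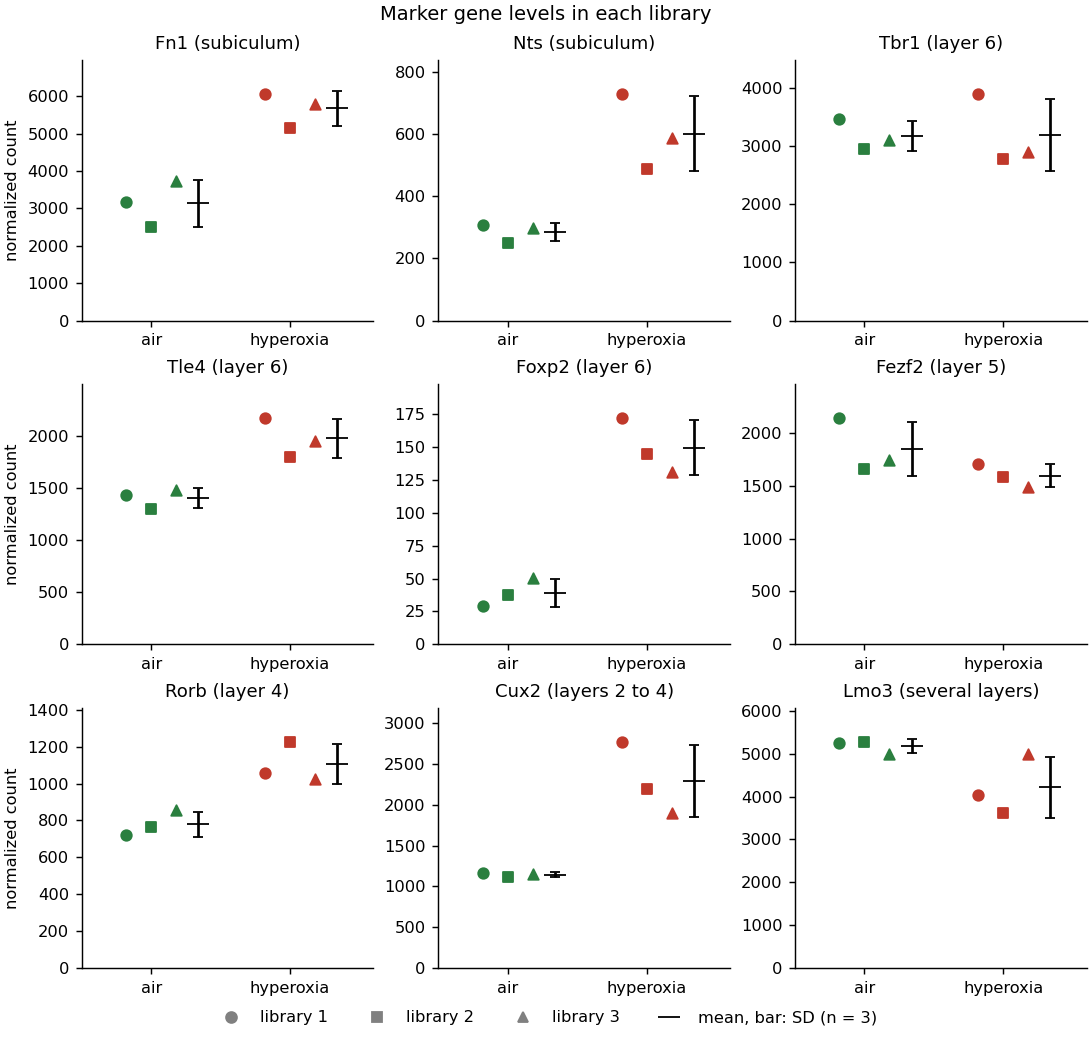
Normalized count of each marker gene (vertical axis, starting at 0) in each air and hyperoxia library, with symbols for library number and a bar for the mean and SD of 3 libraries. The groups do not overlap for Fn1, Nts, Tle4, Foxp2, Rorb and Cux2, which are higher in hyperoxia, and for Lmo3, which is lower, and they overlap for Tbr1 and Fezf2.

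The hyperoxia values lay above those of air without overlap in 6 of the 9 marker genes and below in 1, where the groups did not overlap in 46.1% of all tested genes, higher in 22.3% and lower in 23.8%. Seen by region and by library, the subiculum pair lay 1.16, 0.76 and 0.98 above the air mean on the log2 scale in the hyperoxia libraries. The layer 6 genes lay 1.03, 0.69 and 0.70 above it on average, Rorb 0.45, 0.66 and 0.40 and Cux2 1.28, 0.94 and 0.73. Fezf2 lay at -0.11, -0.21 and -0.30 and Lmo3 at -0.35, -0.52 and -0.05. The layer 6 average was carried mostly by Foxp2, at 2.14, 1.89 and 1.75, while Tbr1 lay on both sides of the air mean, at 0.29, -0.20 and -0.13.

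Hyperoxia library 1 was the highest of the hyperoxia libraries in 7 of the 9 marker genes. Over all tested genes it was the highest in 22.7%, library 2 in 40.2% and library 3 in 37.1%. In Nts it stood 2.56-fold over the air mean, against 1.71-fold and 2.06-fold in libraries 2 and 3. In Foxp2 the folds over the air mean were 4.41, 3.71 and 3.36, and in Cux2 they were 2.42, 1.92 and 1.66. Leaving out hyperoxia library 1 gave log2 differences of 0.91 for Nts, 1.83 for Foxp2 and 0.84 for Cux2. The lowest hyperoxia library was library 2 for Fn1, Nts, Tbr1, Tle4 and Lmo3 and library 3 for Foxp2, Fezf2, Rorb and Cux2.

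Ratios of 2 marker genes within a library do not depend on the size factor. The ratio of Cux2 to Tbr1 was 0.338, 0.377 and 0.371 in the air libraries and 0.713, 0.793 and 0.657 in the hyperoxia libraries. Hyperoxia library 1, the highest in both genes, lay between the other hyperoxia libraries in this ratio. The ratio of Foxp2 to Tbr1 was 0.00845, 0.0128 and 0.0162 in air and 0.0443, 0.0523 and 0.0454 in hyperoxia, and that of Tle4 to Tbr1 was 0.415, 0.439 and 0.476 against 0.559, 0.65 and 0.675. Cux2, Foxp2 and Tle4 were higher in every hyperoxia library and Tbr1 was not, so the parting of these ratios follows largely from the choice of pairs.

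Fezf2 gave ratios of the same order. Cux2 to Fezf2 was 0.545, 0.67 and 0.661 in air and 1.62, 1.38 and 1.28 in hyperoxia, so that Cux2 was below Fezf2 in every air library and above it in every hyperoxia library on the scale of normalized counts, which is not corrected for transcript length. Rorb to Fezf2 was 0.337, 0.459 and 0.49 in air and 0.621, 0.774 and 0.69 in hyperoxia. Against Lmo3, Nts stood at 0.0585, 0.0474 and 0.0596 in air and 0.18, 0.135 and 0.118 in hyperoxia. Fn1 to Lmo3 was 0.605, 0.473 and 0.749 in air and 1.5, 1.43 and 1.16 in hyperoxia. Each of these 7 ratios sets a gene that was higher in every hyperoxia library over a gene that was not, so that the groups part follows largely from the choice of pairs.

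**Figure D2:**
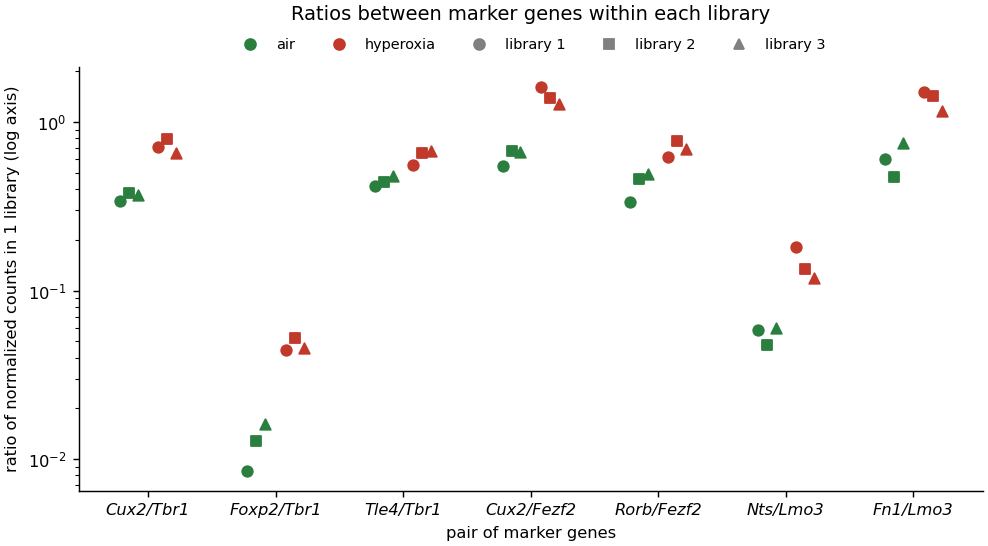
Ratio of the normalized counts of 2 marker genes within each library (vertical axis), for air and hyperoxia libraries. The hyperoxia libraries lie above the air libraries in each of the 7 ratios, among them Cux2 to Tbr1 at 0.657 to 0.793 in hyperoxia and 0.338 to 0.377 in air.

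Levels of different genes were compared per kilobase of the longest annotated transcript. In air-exposed mice Lmo3 was the highest at 1412.7 ± 42.2 normalized counts per kilobase, followed by Tbr1 at 797.4 ± 64.7, Fezf2 at 761.7 ± 106.0, Fn1 at 377.6 ± 75.0 and Tle4 at 308.6 ± 20.9 (SD, n = 3). Nts followed at 228.4 ± 24.4, Cux2 at 130.3 ± 3.2, Rorb at 83.9 ± 7.4 and Foxp2 at 5.8 ± 1.6. Tbr1 and Fezf2, and Fn1 and Tle4, were neighbours in this order with overlapping libraries.

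In hyperoxia-exposed mice Lmo3 and Tbr1 still led the order on the same scale, at 1149.9 ± 192.7 and 800.8 ± 154.4 normalized counts per kilobase. Fn1 at 682.8 ± 55.4 then stood beside Fezf2 at 656.2 ± 45.1, and Nts at 481.9 ± 97.2 beside Tle4 at 434.7 ± 41.1, with libraries that overlapped in both pairs and also between Tbr1 and Fn1. Cux2 at 260.7 ± 50.5, Rorb at 118.9 ± 11.6 and Foxp2 at 22.1 ± 3.1 were last in both groups. The isoform in use is not known from these counts, so the scale rests on 1 transcript length per gene.

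The start regions of 3 marker genes are shown to set Nts and Cux2, which were higher in every hyperoxia library, beside Tbr1, whose groups overlapped. Sequences are from RefSeq on GRCm38.p6, 250 bases before to 50 after an annotated start, and a window was found for 7 of the 9 genes (10 windows), without Fn1 and Foxp2. Capitals mark matches on either strand to the letters searched: TGACGTCA for the cyclic AMP response element, TGANTCA for the AP-1 site, GGGCGG for the GC box and TATAAA for the core promoter element, which the MEF2 motif, also searched, can overlap.
Nts, chr10:102490369-102490668, minus strand: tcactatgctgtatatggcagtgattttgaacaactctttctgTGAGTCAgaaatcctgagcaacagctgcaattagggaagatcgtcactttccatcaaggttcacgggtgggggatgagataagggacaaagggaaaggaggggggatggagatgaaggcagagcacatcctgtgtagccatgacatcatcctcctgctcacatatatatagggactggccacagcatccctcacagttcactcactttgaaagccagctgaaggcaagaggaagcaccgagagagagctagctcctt
Tbr1, chr2:61804203-61804502, plus strand: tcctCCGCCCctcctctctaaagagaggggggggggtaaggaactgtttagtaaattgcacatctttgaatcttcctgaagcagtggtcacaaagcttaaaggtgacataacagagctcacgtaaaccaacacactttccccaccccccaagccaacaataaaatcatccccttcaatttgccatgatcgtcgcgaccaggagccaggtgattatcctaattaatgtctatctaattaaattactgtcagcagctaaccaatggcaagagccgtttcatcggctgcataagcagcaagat
Cux2, its second window, chr5:122047776-122048075, minus strand: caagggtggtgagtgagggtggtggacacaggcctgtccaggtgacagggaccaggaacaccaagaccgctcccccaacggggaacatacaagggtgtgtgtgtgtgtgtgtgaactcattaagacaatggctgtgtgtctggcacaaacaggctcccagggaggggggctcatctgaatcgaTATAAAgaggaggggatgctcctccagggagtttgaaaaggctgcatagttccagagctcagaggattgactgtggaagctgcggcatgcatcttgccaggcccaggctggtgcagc

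The Nts window holds an AP-1 match that begins 207 bases before the start. In the Tbr1 window a GC box begins 246 bases before the start. The second Cux2 window holds a core promoter element match at 67 bases before the start. The first Cux2 window, not shown, holds no match to any motif searched. AP-1 letters also occur in the windows of Fezf2, 121 bases before the start, and of Rorb, in its second window, 230 bases before the start. AP-1 letters were in 7.81% of all 32851 mouse windows of this length, core promoter element letters in 13.62% and GC box letters in 35.66%. Letters of the cyclic AMP response element, found in 1.79% of all windows, and the MEF2 motif, found in 3.69%, were in none of the 10 windows. A match of letters is a description of the window and does not show binding.

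The other genes known from the subiculum were followed by a list that left out Fn1 and Nts. This list and those below were also written with earlier results of these data known, so their counts and p-values are not independent evidence of a direction. Of 6 genes, 5 passed the filter, 3 rose and none fell (median log2 difference 0.78 for those 5), and Teddm3 was below the filter. Tshz2, a zinc finger transcription factor, rose by 2.20 on the log2 scale (SE 0.18, limma adjusted p = 0.00026), from 124.4 ± 18.1 to 585.5 ± 157.0 normalized counts. Slc17a6, the vesicular glutamate transporter of subicular and thalamic neurons, rose by 1.72 (SE 0.11, limma adjusted p = 0.00012), from 592.7 ± 37.7 to 1965.8 ± 263.0. Gpr101, an orphan receptor, rose by 0.61 (SE 0.14, limma adjusted p = 0.012), a call lost without hyperoxia library 1, without air library 1 or with the length and GC trend removed. Cbln4, a secreted synaptic organizer, differed by 0.78 (SE 0.27, limma adjusted p = 0.056) and Ly6g6e by -0.45 (SE 0.18, limma adjusted p = 0.089), and neither passed. The summed level of the list was 1146 to 1251 normalized counts in air and 2687 to 3797 in hyperoxia, with hyperoxia library 1 the highest. Slc17a6 alone made up 57.0% of the summed level over all libraries.

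Of 33 further neocortex genes, 15 rose, 3 fell and 15 did not pass (median log2 difference 0.30). Without hyperoxia library 3, 5 fell. In the deep list of layer 6 and subplate, 5 of 10 rose and none fell (median 0.40). Cplx3, a complexin of subplate neurons, rose by 1.62 (SE 0.22, limma adjusted p = 0.0011). Oprk1, the kappa opioid receptor, rose by 1.59 (SE 0.24, limma adjusted p = 0.0017). Ctgf, a secreted matrix protein and subplate marker, rose by 1.31 (SE 0.15, limma adjusted p = 0.00061). Hyperoxia library 1 was the highest hyperoxia library in 8 of these 10 genes.

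In the layer 5 list, which left out Fezf2, 5 of 9 genes rose and 1 fell (median log2 difference 0.44). Qrfpr, a neuropeptide receptor, rose by 1.12 (SE 0.23, limma adjusted p = 0.0059), and Deptor, an inhibitor of mTOR, rose by 0.90 (SE 0.12, limma adjusted p = 0.0011). Fam84b fell by 0.88 (SE 0.13, limma adjusted p = 0.0016). The layer 5 list and Fezf2, whose log2 difference was -0.21, thus had medians or values of opposite sign, and that difference was not tested.

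In the list of layers 2 to 4, which left out Cux2 and Rorb, 2 of 10 genes rose, 2 fell and 6 did not pass (median log2 difference 0.21). Scnn1a, an epithelial sodium channel subunit known from layer 4, fell by 0.51 (SE 0.11, limma adjusted p = 0.0089). Otof, otoferlin, rose by 0.42 (SE 0.10, limma adjusted p = 0.012), a call lost without air library 1 or 2. Lamp5 differed by 0.44 (SE 0.19, limma adjusted p = 0.11) and did not pass. Among 4 genes found across layers, 3 rose (median 1.08). Mef2c, an activity-linked transcription factor, rose by 1.24 (SE 0.23, limma adjusted p = 0.0039), and Dkkl1 by 0.92 (SE 0.21, limma adjusted p = 0.011).

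The dissected tissue held the genes of the hippocampal fields in every library, and their levels are given because the markers described above are set against them. Of 25 field genes, 12 fell, 3 rose and 10 did not pass (median log2 difference -0.35). Without air library 1, 7 fell and 1 rose, and 1 rose without hyperoxia library 1, air library 2 or air library 3 and in limma without the trend. Among dentate granule cell genes 6 of 8 fell and none rose (median -0.72). Plk5, a polo-like kinase, fell by 1.28 (SE 0.13, limma adjusted p = 0.00039), and C1ql2, a synaptic C1q-like protein, by 1.24 (SE 0.12, limma adjusted p = 0.00035). Lct, the lactase gene, fell by 0.85 (SE 0.19, limma adjusted p = 0.011), a call lost without air library 1 (limma adjusted p = 0.051).

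Among the pyramidal cell lists, the CA1 list had 1 gene higher and 1 lower of 6, the CA2 list 1 higher and 2 lower of 5 and the CA3 list 1 higher and 3 lower of 6. In CA1, Spink8 fell by 0.84 (limma adjusted p = 0.0021), Mpped1 rose by 0.35 (limma adjusted p = 0.020, lost in 5 of 16 alternatives) and Wfs1 differed by -0.32 (SE 0.20, limma adjusted p = 0.25). In CA2, Rgs14, a regulator of G protein signalling, fell by 0.86 (limma adjusted p = 0.00045). Ccdc3 fell by 0.57 (limma adjusted p = 0.041) and Cacng5 rose by 0.31 (limma adjusted p = 0.033), and each was lost in 6 of 16 alternatives. In CA3, Iyd fell by 0.99 (limma adjusted p = 0.0059), Homer3, a scaffold of glutamate receptors, fell by 0.73 (limma adjusted p = 0.0039) and Coch rose by 0.98 (limma adjusted p = 0.0023). The summed level of the 4 field lists was 53920 to 55070 normalized counts in air and 41278 to 49289 in hyperoxia, without overlap. By list, the groups parted for dentate granule cells (19601 to 20097 in air, 11834 to 17370 in hyperoxia) and CA2 (4184 to 4222, 2941 to 3432). They overlapped for CA1 (22205 to 22951, 19427 to 23740) and CA3 (7435 to 8207, 5654 to 7533). The sum of the neocortex lists also overlapped, at 44512 to 47887 in air and 47652 to 61067 in hyperoxia.

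**Figure D3:**
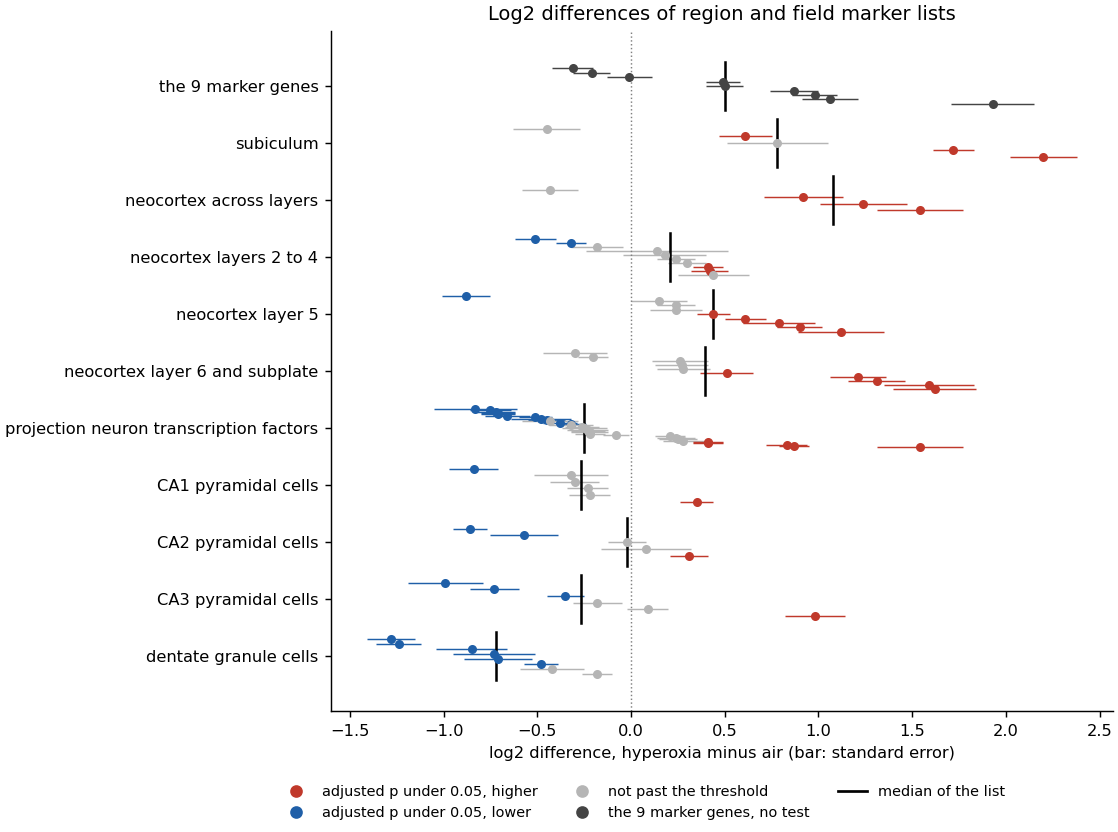
Log2 difference (hyperoxia minus air) of the 9 marker genes and of each list gene, with bars for the standard error and a vertical line for the median of a list. The subiculum and neocortex lists have medians of 0.21 to 1.08 and the dentate granule cell list a median of -0.72.

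**Figure D4:**
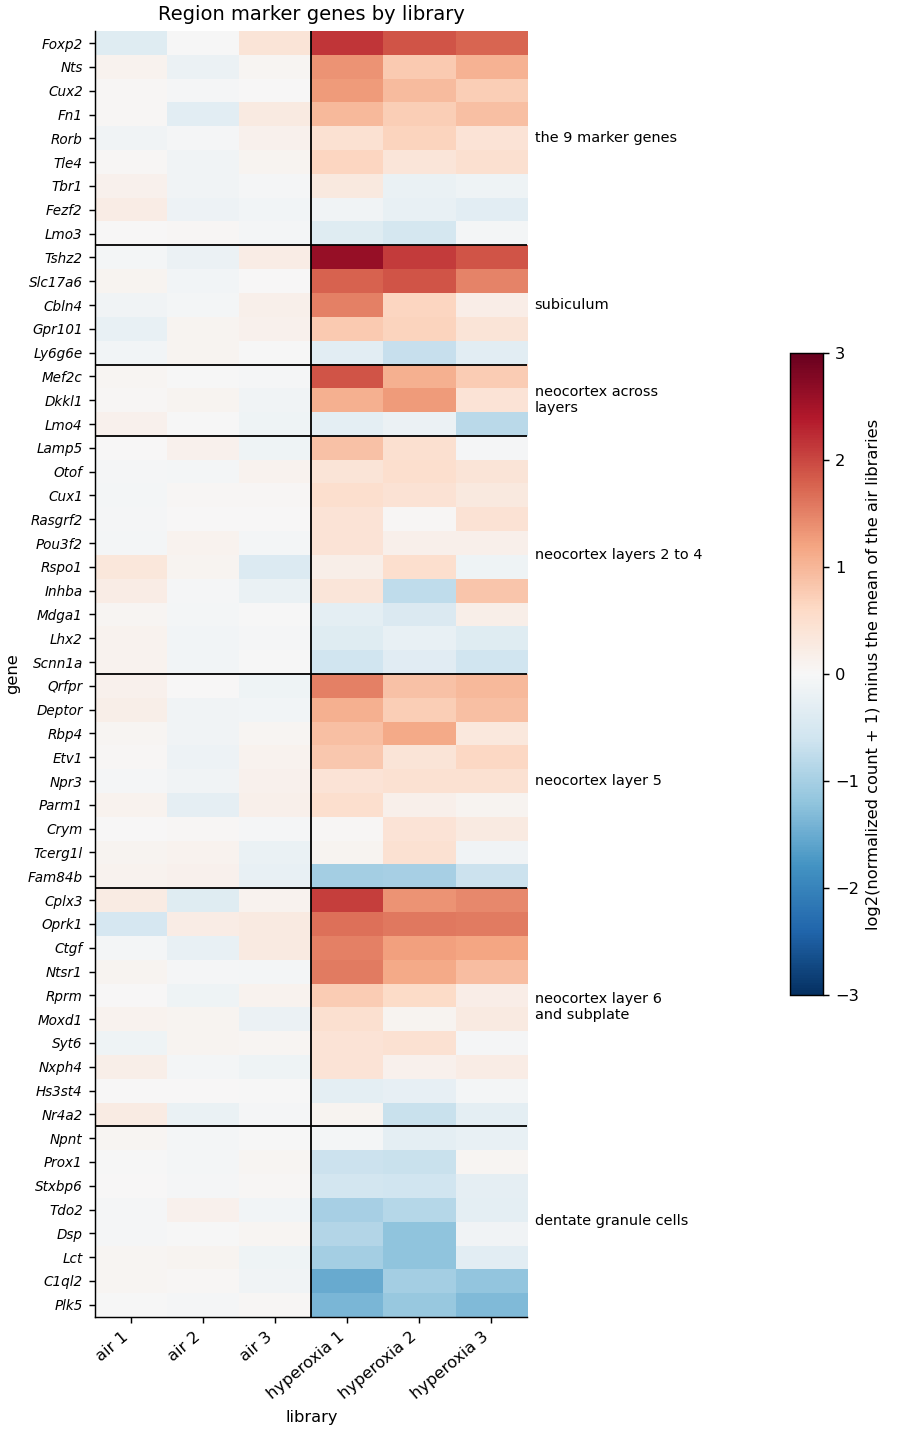
Log2 of the normalized count plus 1 minus the mean of the air libraries (colour) for each gene (rows) in each library (columns), for the marker genes and for genes of the subiculum, neocortex and dentate granule cell lists. Red is strongest in hyperoxia library 1 for many genes, as in Mef2c and Tshz2, and Plk5 and C1ql2 are blue in all 3 hyperoxia libraries.

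Most of the marker genes encode regulators of transcription, and other transcription factors of projection neurons were followed beside them. Of 29 of these, 11 fell, 5 rose and 13 did not pass (median log2 difference -0.25). Without air library 1, 7 fell, and without hyperoxia library 2, 8 rose. Rora, a nuclear receptor of the same family as Rorb, rose by 0.87 (SE 0.08, limma adjusted p = 0.00031), and Sox5, a factor of deep-layer neurons, rose by 0.83 (limma adjusted p = 0.0013). Eomes, a T-box factor of intermediate progenitors and a relative of Tbr1, fell by 0.83 (SE 0.22, limma adjusted p = 0.019), a call lost in 5 of 16 alternatives. Neurod6 fell by 0.75 (SE 0.11, limma adjusted p = 0.0014), a call kept in all 16 alternatives.

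Receptors for the secreted products of Nts and Fn1 were measured as well. Of 3 neurotensin receptors, Ntsr1, which is also a marker of layer 6 corticothalamic neurons, rose by 1.21 (SE 0.15, limma adjusted p = 0.00085). Sort1, the sorting receptor that binds neurotensin, fell by 0.34 (limma adjusted p = 0.010), a call lost without air library 2 or 3, and Ntsr2 differed by -0.19 (limma adjusted p = 0.22). Of 9 fibronectin receptors, 4 rose and 1 fell (median log2 difference 0.32). Itga5, the alpha subunit of the classical fibronectin receptor, rose by 0.94 (limma adjusted p = 0.0015), Itgav by 0.90 (limma adjusted p = 0.0010), and Itgb1 and Sdc2 also rose. Itga8 fell by 0.54 (limma adjusted p = 0.0068).

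Markers of other tissue that a dissection could hold moved beside these genes, and no gene of these lists was at 0 in any library. Beside Fn1, 5 of 6 genes of fibroblasts and meninges rose (median log2 difference 0.71), with a summed level of 7305 to 9092 normalized counts in air and 9432 to 14760 in hyperoxia, highest in hyperoxia library 2, in which Fn1 was lowest of the 3. Of 6 endothelial genes, 3 rose and 1 fell, with sums of 6572 to 7023 in air and 7604 to 8702 in hyperoxia. Beside Foxp2, 4 of 8 striatal genes rose and 2 fell, with sums of 2344 to 2489 in air and 2500 to 3358 in hyperoxia. Beside Rorb, 2 of 6 thalamic genes rose, with sums of 4553 to 4841 in air and 5019 to 6185 in hyperoxia. Both calls were weak. Ntng1 (limma adjusted p = 0.038) was called in only 10 of 16 alternatives. The groups of Tcf7l2 (limma adjusted p = 0.039) overlapped, at 527.7 normalized counts in air library 3 and 514.5 in hyperoxia library 1. The thalamic sum and Rorb were highest in hyperoxia library 2, which was the highest hyperoxia library in 40.2% of all tested genes. The part of these tissues in the values of the marker genes was not tested.

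Choroid plexus genes stood high in hyperoxia library 3, where Ttr measured 7454.3 normalized counts, against 166.9 to 887.0 in the other libraries. Without hyperoxia library 3 the log2 differences were 0.85 for Fn1, 1.07 for Nts, 2.02 for Foxp2 and 1.11 for Cux2. Of 6 oligodendrocyte genes 5 fell (median log2 difference -0.70), with sums of 211426 to 321844 normalized counts in air and 144727 to 177382 in hyperoxia.

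The genes whose values over the 6 libraries were most like those of each marker gene were found by the root mean square difference between log2 profiles, each centred and scaled to unit SD. A profile close to that of a gene whose groups differ must itself differ between the groups, so these are descriptions. Cux2 was closest to Tshz3 (0.035), Cdh20 (0.042) and Met (0.06). Tshz3, a zinc finger transcription factor, measured 275.9, 253.4 and 261.8 normalized counts in the air libraries and 2209.9, 1364.2 and 894.7 in the hyperoxia libraries. Met, a receptor tyrosine kinase, measured 115.8, 104.8 and 129.4 and then 739.9, 448.3 and 334.9. Both had the order of hyperoxia libraries of Cux2, with a wider difference between groups.

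Foxp2 was closest to Limk2 (0.046), Slc22a23 (0.057) and Etv6 (0.096), and Nts to Adamts12 (0.061), Kif21b (0.062) and Ipo5 (0.073). Tle4 was closest to Prlr (0.062), Ipo5 (0.065) and Dlc1 (0.072), and Fn1 to Kcnn3 (0.068), Atp13a5 (0.1) and Thbs1 (0.108). Lmo3 was closest to Nckap1 (0.057), Scn3b (0.102) and Gm20511 (0.106), and Rorb to Ttpa (0.088), Sash3 (0.109) and Gm43322 (0.111). Tbr1 and Fezf2, whose groups overlapped, had no neighbour as near: Neurl4 (0.167), 1700007J10Rik (0.219) and Coil (0.22) for Tbr1, and Gm10481 (0.146), Nlgn2 (0.158) and Arfgap3 (0.179) for Fezf2. Among the marker genes themselves the nearest pair was Nts and Tle4 (0.09), across the subiculum and layer 6, and the farthest was Rorb and Lmo3 (1.94).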

How the data were processed

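Left hippocampal polyA RNA of 3 air-exposed and 3 hyperoxia-exposed mice was sequenced in strand-specific paired-end libraries (Agilent SureSelect, Illumina NextSeq). The submitters' processing notes name FastQC, STAR 2.5.3a, HTSeq and DESeq2. Genome build, annotation and strand setting of the counting: not given in the sources used here. In the deposited signal, the authors had divided the reads on a gene by 1 size factor per library. A second deposited table holds only the authors' own comparison (mean, fold change, error and p-values) and was not used. Divided by the worth of a single read, 100% of values came out whole within 0.01, so reads could be recovered.

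The columns carry a group and a number that is not an animal's, so columns served as unnumbered replicates, and directions follow the column names. The labels name separate animals but no litters, so p-values measure the spread between these samples. Replicates differed by more than counting noise (chi-square per gene 6.51 to 47.23).

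Genes with a mean of at least 10 (17778) were tested in R 4.3.3 by limma 3.58.1 on log2(value + 1), with its trend of variance on mean. This scale understates changes of low genes. p-values were adjusted by Benjamini-Hochberg over all genes tested, at a threshold of 0.05. An exact permutation test of 3 against 3 libraries cannot give a p below 0.1 and was not used. The 16 alternatives were other pseudocounts (0.5, 5), other filters (none, or a mean of 50 or more), other scalings (quantile, TMM), limma without its trend, edgeR 4.0.16 (quasi-likelihood) and DESeq2 1.42.0 on the recovered reads, the trend on length and GC content removed (mgcv 1.9.3; 17735 genes), and each library left out in turn.

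The 9 marker genes and the gene lists were chosen with earlier results of these data known. The marker genes were picked on these values and carry no p, and the p-values of list genes come from the fit over all genes. All 9 are named. From each subiculum, neocortex, hippocampal field and transcription factor list, genes with the largest log2 differences in either direction are named, with every called gene of the subiculum list, and for each marker gene the tested genes with the nearest profile. Some genes under this rule are not reported here. Ttr, Sox5, Neurod6, Ntng1, Tcf7l2 and the named receptors fall outside that rule and were chosen after their values were seen. Gene positions and lengths are those of GENCODE M21 on GRCm38, in which 99.68% of the identifiers were found and 84.82% had the same version (Tle4 and Fezf2 differed in version). Start regions are from RefSeq. Tables and plots were made with Python 3.11.15, pandas 2.3.3, numpy 2.4.6, scipy 1.17.1 and matplotlib 3.10.9.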

Additional observations from a re-analysis of the deposited data

How the results depend on the processing

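Over the 16 alternatives the log2 difference of Tbr1 took both signs (-0.16 to 0.08), and that of each other marker gene kept its sign. Ranges were 0.70 to 1.01 for Fn1, 0.91 to 1.20 for Nts, 0.41 to 0.56 for Tle4, 1.68 to 2.13 for Foxp2, 0.16 to 0.57 for Rorb, 0.82 to 1.11 for Cux2, -0.44 to -0.20 for Lmo3 and -0.28 to -0.09 for Fezf2. Marker genes past the threshold and higher numbered 5, without Rorb, with the length and GC trend removed, against 6. Those lower numbered 1 under quantile normalization, DESeq2 and the removed length and GC trend, against 0, and 0 to 1 with a library left out (1 without hyperoxia library 3). The subiculum list had 1 lower and the field lists 1 higher in limma without the trend, against 0 and 3. The cause was not tested.

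With each library left out in turn, 1445 to 3838 of all genes rose (2643 with all libraries) and 1603 to 3918 fell (2782). Counts were 1445 and 1603 without air library 1, 1478 and 1609 without air library 2 and 1577 and 1801 without hyperoxia library 1, and 1844 fell without air library 3. The highest, 3838 and 3918, came without hyperoxia library 2. The neocortex lists had 12 to 18 higher and 2 to 5 lower, the field lists 1 to 3 higher and 7 to 15 lower, and the transcription factor list 5 to 8 higher and 7 to 15 lower. No paired analysis was possible because the column numbers are not animal numbers and the labels give the groups no shared number. Single outlying libraries were not tested for, and Foxp2 is limited by its 31 to 49 reads in air.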
